A study of Mus musculus with 2 samples.

Results

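Transcripts of 10 immediate-early and early response genes were compared between 2 ways of stabilizing primary mouse pituitary cells. The genes were 4 Krüppel-like factors (Klf2, Klf4, Klf6 and Klf10), 3 small immediate early response genes (Ier2, Ier3 and Ier5), 2 members of the BTG/TOB family (Btg1 and Btg2) and Arc. They were chosen by symbol from the 47069 genes in the table of counts, and all 10 were found and expressed well above the limit for comparison, a mean of 1 CPM (counts scaled to a common library total). By CPM all 10 were lower in the sample kept in RNA-Best than in the sample kept in RNAlater, as were 51.2% of all 16504 genes that passed this limit, each by its counting interval. Under 3 other scalings of the libraries 8 of the 10 stayed lower, against 36.8%, 35.8% and 40.3% of all genes. Ier2 and Btg2 were higher under these scalings, as were 33.1%, 34.1% and 29.1% of all genes. The difference was largest for Klf2, with 26.3 against 43.0 CPM, and smallest for Ier2, with 384.7 against 392.6 CPM. None of the 10 was lower by 2-fold, against 4.99% of all genes. Lower levels in RNA-Best were thus the more frequent direction among all genes by CPM (51.2% against 20.2% higher). That margin narrowed under the other 3 scalings.

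The study is a bulk RNA-seq comparison of stabilizers. RNA-Best is a buffer developed to stabilize RNA within cells that stay intact for single-cell assays, while RNAlater, a reagent in wide use for bulk RNA in which cells do not stay whole, was the reference. Both samples were acutely dissociated primary cells of whole pituitaries from randomly cycling female C57BL/6 mice of 10 to 12 weeks. No hormone treatment or genetic change is listed for either. Collagenase and then pancreatine were used to free the cells, and a sample held about 500000 to 700000 cells pooled from 5 pituitaries. The cells were placed directly in the RNA-Best or the RNAlater, so by their labels the samples differ only in the stabilizer. Whether both were drawn from the same pool of glands is not given in the sources used here. With 1 library for each stabilizer, differences could not be checked against replicates and were not tested. The intervals given are 95% counting intervals, which do not cover the variation between animals, dissociations or library preparations.

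Immediate-early genes are switched on within minutes of a stimulus by factors already present in the cell, among them SRF and CREB, and need no new protein for it. Their mRNAs are as a rule short-lived, in part through AU-rich elements after the stop codon that recruit decay factors. In the pituitary such genes respond to hypothalamic hormones, for example in gonadotropes to gonadotropin-releasing hormone, and enzymatic dissociation of tissue can also induce them. Krüppel-like factors are zinc-finger proteins that bind GC-rich and CACCC sequences. BTG proteins restrain proliferation and bind the CCR4-NOT deadenylase, which shortens poly(A) tails, and Arc is an activity-regulated protein known best from synapses.

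The promoters of the genes were examined for the binding motif of CREB, because CREB is among the known regulators of early genes. RefSeq promoters were found for 7 of the 10 genes (GRCm38.p6), but not for Klf10, Ier2 and Arc. The 250 bases before each start were searched on both strands. The core TGACG, read as CGTCA on the opposite strand, was present in Btg1, Btg2, Klf2 and Klf4 (4 of 7), against 17.8% of 32851 promoters. The promoters of these 4 genes follow, with each copy of the core in capitals. The last bases of the Klf2 window lie past the gene start annotated in GENCODE.
Btg2, chr1:134079156-134079405, minus strand: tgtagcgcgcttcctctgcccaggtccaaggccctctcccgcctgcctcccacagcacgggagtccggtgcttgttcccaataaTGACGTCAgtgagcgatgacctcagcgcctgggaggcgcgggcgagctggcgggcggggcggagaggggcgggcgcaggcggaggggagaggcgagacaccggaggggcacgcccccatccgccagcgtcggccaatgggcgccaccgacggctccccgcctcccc
Btg1, chr10:96616751-96617000, plus strand: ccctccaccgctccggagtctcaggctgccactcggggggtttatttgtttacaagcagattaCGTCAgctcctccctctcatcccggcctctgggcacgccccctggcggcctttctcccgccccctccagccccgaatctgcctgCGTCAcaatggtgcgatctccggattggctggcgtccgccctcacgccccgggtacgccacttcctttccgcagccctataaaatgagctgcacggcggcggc
Klf2, chr8:72318812-72319061, plus strand: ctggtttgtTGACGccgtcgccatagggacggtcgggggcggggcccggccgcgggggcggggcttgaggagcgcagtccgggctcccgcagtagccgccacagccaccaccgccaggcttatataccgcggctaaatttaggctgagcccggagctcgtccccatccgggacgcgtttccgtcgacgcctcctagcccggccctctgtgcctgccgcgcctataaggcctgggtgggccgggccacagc
Klf4, chr4:55532476-55532725, minus strand: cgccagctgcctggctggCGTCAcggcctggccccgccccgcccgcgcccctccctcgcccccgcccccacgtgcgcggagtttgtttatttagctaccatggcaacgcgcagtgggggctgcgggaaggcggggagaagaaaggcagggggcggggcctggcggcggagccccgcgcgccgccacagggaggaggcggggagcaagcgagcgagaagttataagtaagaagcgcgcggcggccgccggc
Only Btg2 among the 7 held the full palindrome TGACGTCA, the cAMP response element, in which the cores of both strands overlap. In Btg2 it lies 159 to 166 bases before the RefSeq start, which is itself upstream of the gene start annotated in GENCODE. The palindrome was found in 1.55% of all promoters. Btg1 held 2 copies of the core, and its promoter was the only one of the 7 with the TATA sequence TATAAA (12.4% of all promoters). The CArG box bound by SRF was found in 0 of the 7 windows, against 1.47% of all. All 7 held the GC box GGGCGG, a Krüppel-like and Sp factor motif present in 32.7% of all promoters, and 5 of the 7 held CCAAT (33.8%). These shares are over all 32851 promoters, which were not matched to the 7 for expression or GC content. Among the 7 genes, those with the CREB core include the largest (Klf2 and Klf4) and the smallest (Btg2) differences between the libraries. Ier2, with the smallest difference of the 10, and Arc could not be searched. A match to a motif is a description of the sequence, not a sign of binding in these cells.

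AU-rich sequence after the stop codon was counted in the longest coding transcript of each gene (GENCODE M21). The pentamer ATTTA occurred in 8 of the 10 genes, against 70.1% of 13707 genes with a coding transcript, with a median density of 1.80 against 1.31 per kb of 3′ UTR. Ier3 had the highest density of the 10, at 8.16 per kb with 5 copies, and Btg1 had the most copies, 11 in a 3′ UTR of 4166 bases. Ier2 and Arc had 0 copies. The nonamer TTATTTATT was found in 0 of the 10 and in 8.27% of all. In a search for stretches of 30 bases with at least 2 pentamers, only Ier3 and Btg2 had such a stretch, and these are shown with ATTTA in capitals.
Ier3, chr17:35822485-35822514, plus strand: taattaatATTTAtgtATTTAtgtatatcc
Btg2, chr1:134076017-134076046, minus strand: aATTTAtttgtagatgtgtgcaatATTTAc
The stretch in Ier3 begins 175 bases after the stop codon and that in Btg2 1323 bases after it. The same 3′ UTR of Btg2 is the target of the single-cell qPCR primers of the study, ttcctttgagaggtggctca and gagaaggcagtaagaaaggacttg, whose 60-base product lies at chr1:134076423-134076482, bases 1431 to 1490 of a transcript of 2743 bases. That assay was made on other samples and was not analysed here.

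The count table held 53915047 counts for RNA-Best and 44917492 for RNAlater, a ratio of 1.20. The 2 most abundant mRNAs, Prl and Gh, which encode prolactin and growth hormone, took 29.7% of the counts in RNA-Best and 23.2% in RNAlater. All 7 hormone mRNAs examined were present in both libraries, as the tissue label calls for, the weakest being Tshb at 52.9 and 31.6 CPM. CPM divides by the whole total, so a larger share of these mRNAs leaves less for every other gene. The median log2 ratio of RNA-Best to RNAlater over all genes was -0.18 by CPM, -0.06 when Prl and Gh were left out of the total, -0.01 under edgeR's TMM factors and -0.004 under DESeq2 size factors. Ratios are given as log2 of RNA-Best over RNAlater with 0.5 CPM added to each level. Intervals are those of the plain ratio.

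The 2 lowest ratios among the 10 genes were those of Krüppel-like factors, and the 4 factors had a median log2 ratio of -0.50. Klf2, a factor known from vascular endothelium and T cells, was counted 1417 times in RNA-Best and 1933 times in RNAlater, or 26.3 and 43.0 CPM (ENSMUSG00000055148.7, chr8:72319033-72321656, plus strand). The log2 ratio of Klf2 was -0.70 (interval -0.81 to -0.61), a level 38.9% lower in RNA-Best, and it ranked 5812th by CPM there against 4334th in RNAlater. It was the weakest of the 10 genes in either library, also per kb of transcript.

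Klf4, a factor of epithelia and endothelium and a reprogramming factor, stood at 110.1 CPM with RNA-Best and at 172.1 CPM with RNAlater (ENSMUSG00000003032.8, chr4:55527143-55532466, minus strand). Its log2 ratio of -0.64 (-0.69 to -0.60) overlapped that of Klf2 within counting error. Klf6, which is widely expressed and induced by injury, was the most abundant of the 4, at 358.6 and 460.2 CPM (ENSMUSG00000000078.6, chr13:5861482-5870394, plus strand). It had a log2 ratio of -0.36 (-0.39 to -0.33), separate from that of Klf4. Klf10, induced by TGF-beta and also known as Tieg1, had 61.9 and 77.7 CPM (ENSMUSG00000037465.9, chr15:38291463-38300706, minus strand). Its log2 ratio of -0.33 (-0.40 to -0.26) was not separate from that of Klf6. The family thus fell into a lower pair, Klf2 and Klf4, and a pair nearer to the other genes.

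**Figure D1:**
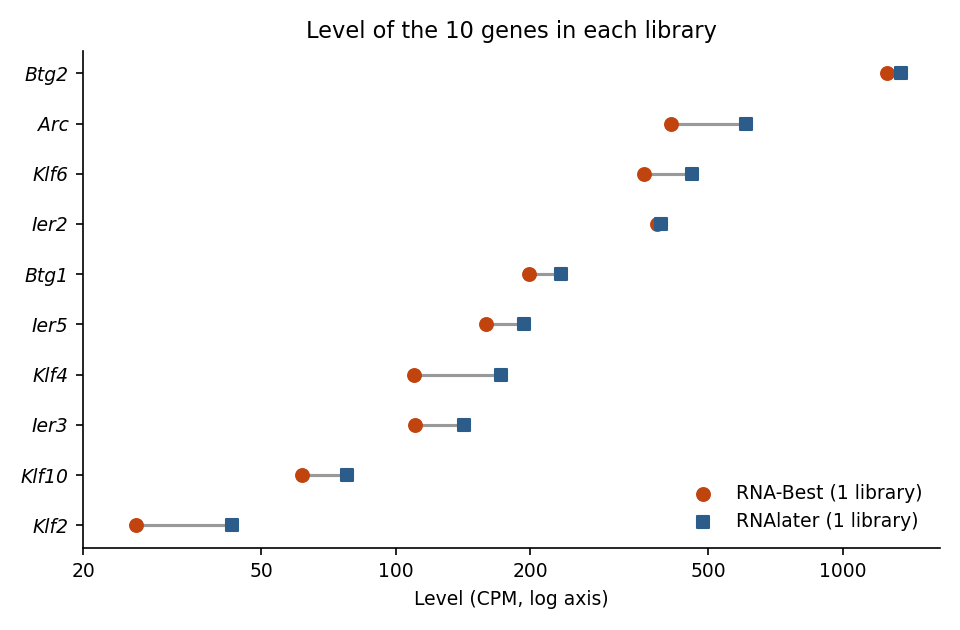
Level of each of the 10 genes in CPM (log axis) in the RNA-Best library (circles) and the RNAlater library (squares), 1 library each, joined by a line per gene. The circle lies left of the square for all 10 genes on this scale, with the widest gaps at Klf2, Klf4 and Arc, and Btg2 is the most abundant at 1258 and 1353 CPM.

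The Ier genes are small genes with few exons whose products act in growth and stress responses. Ier2, a nuclear protein gene of 1 exon, differed by only 2.03% between the libraries, at 384.7 CPM with RNA-Best and 392.6 CPM with RNAlater (ENSMUSG00000053560.4, chr8:84661331-84662852, minus strand). Its log2 ratio was -0.03 and its interval, -0.059 to -0.001, barely excluded equal levels. Ier3, which modulates apoptosis and is also known as Iex-1, had 110.7 and 142.2 CPM (ENSMUSG00000003541.6, chr17:35821684-35822923, plus strand). The log2 ratio of -0.36 (-0.41 to -0.31) was close to that of Klf6.

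Ier5, whose product takes part in the heat-shock response, had levels of 159.0 and 193.9 CPM, with whole counts of 8572 and 8710 (ENSMUSG00000056708.5, chr1:155096361-155099636, minus strand). This gave a log2 ratio of -0.29 (-0.33 to -0.24). Ier3 and Ier5 had overlapping intervals with Klf10, which lay between them, and both were separate from Ier2. Of the 3 Ier genes, Ier2 thus stood apart.

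Btg2, an antiproliferative p53 target and the most abundant of the 10 genes, was counted 67842.17 times in RNA-Best and 60788 times in RNAlater, or 1258 and 1353 CPM (ENSMUSG00000020423.6, chr1:134075170-134079120, minus strand). It ranked 43rd of all genes in RNA-Best and 39th in RNAlater. Its log2 ratio was -0.11 (-0.12 to -0.09), a level 7.02% lower in RNA-Best. Btg1, its paralog, had 199.2 and 234.4 CPM (ENSMUSG00000036478.7, chr10:96617006-96622809, plus strand). The log2 ratio of Btg1 was -0.23 (-0.27 to -0.20), separate from that of Btg2. Both ratios were closer to equal levels than those of the 4 Krüppel-like genes, although the intervals of Btg1 and Klf10 overlapped.

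Arc was at 412.8 CPM with RNA-Best and at 606.2 CPM with RNAlater (ENSMUSG00000022602.14, chr15:74669083-74672570, minus strand). Its ratio on the log2 scale was -0.55 (-0.58 to -0.53), between those of Klf4 and Klf6 and separate from both. It ranked 166th of all genes in RNA-Best and 90th in RNAlater. In order of their ratios from the lowest, the 10 genes were Klf2, Klf4, Arc, Klf6, Ier3, Klf10, Ier5, Btg1, Btg2 and Ier2. Neighbours from Klf6 to Btg1 in this order overlapped in their intervals, as did Klf2 and Klf4.

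By CPM the direction shared by the 10 genes was also the most frequent among all genes. The interval lay wholly below equal levels for 10 of the 10 genes, but also for 51.2% of all 16504 genes, and wholly above for 0 of the 10 against 20.2%. A difference of at least 2-fold was seen in 0 of the 10, against 4.99% of all genes lower and 0.273% higher in RNA-Best. The median log2 ratio of the 10 was -0.34, which is 0.17 below the -0.18 of all genes. All-gene ratios had quartiles of -0.47 and 0.10 and a robust SD of 0.42, which describe the spread of single genes. Against the all-gene median, 8 of the 10 were lower, and Btg2 and Ier2 were the exceptions.

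The scaling of the libraries decided the direction of the 2 genes nearest to equal levels. Under TMM, under DESeq2 size factors and with Prl and Gh left out of the total, 8 of the 10 genes stayed lower in RNA-Best and Btg2 and Ier2 were higher. Under TMM the log2 ratio was 0.07 for Btg2 (0.05 to 0.08) and 0.14 for Ier2 (0.11 to 0.17). The share of all genes lower by the interval was then 36.8%, and the share higher 33.1%. Klf2 stood at -0.53, Klf4 at -0.47 and Arc at -0.38 under TMM. Scaling shifts the ratios of all genes alike, so the distance of the 10 from the median of all genes hardly depends on it.

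**Figure D2:**
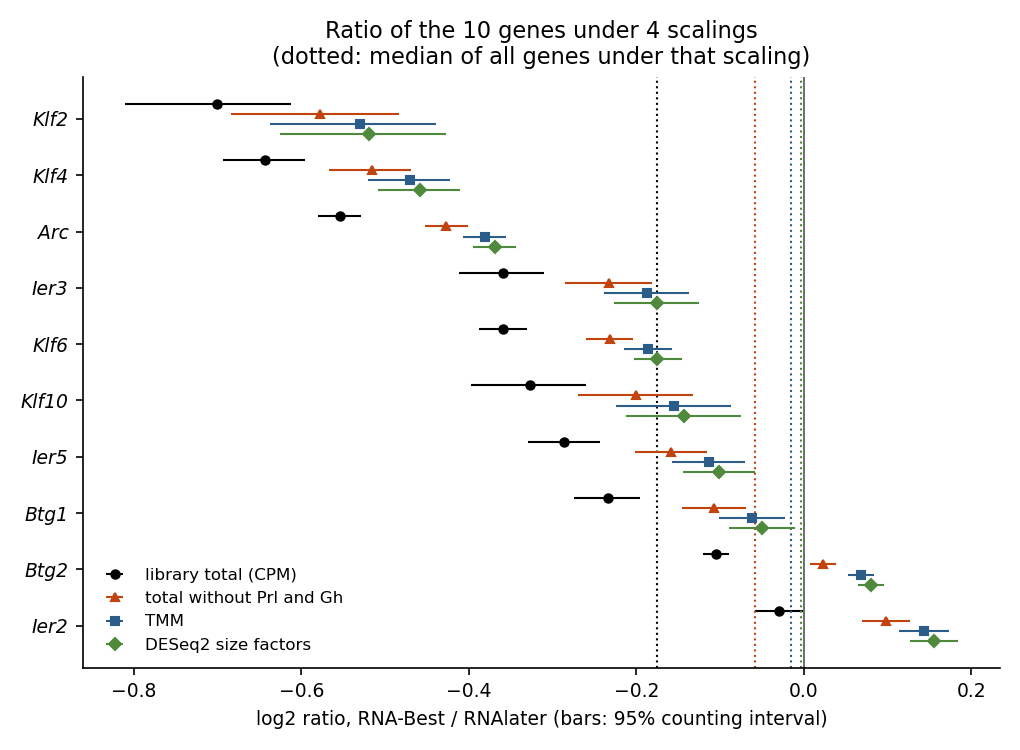
Log2 ratio of RNA-Best to RNAlater of each of the 10 genes under the library total, the total without Prl and Gh, TMM and DESeq2 size factors, with 95% counting intervals; dotted lines mark the median of all genes under each scaling. All points lie below 0 under the library total, while Btg2 and Ier2 lie above 0 under the other 3 scalings.

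Levels were compared between genes per kb of the longest annotated transcript. Btg2 was the highest at 458.7 CPM per kb in RNA-Best and 493.4 in RNAlater, followed by Ier2 at 252.7 and 258.0. Arc came next at 135.1 and 198.4 CPM per kb. Ier3, Klf6 and Ier5 held the following places in both libraries, with Ier3 at 97.9 and 125.7 CPM per kb. Klf10 and Klf2 were the lowest in both, Klf2 at 14.2 and 23.3 CPM per kb. The order of the 2 libraries differed at a single place. Btg1 lay above Klf4 in RNA-Best, at 39.8 against 36.3 CPM per kb, and below it in RNAlater, at 46.9 against 56.8. Ier5 and Klf4 in RNAlater, at 59.2 and 56.8 CPM per kb, were the only neighbours whose counting intervals overlapped.

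Quotients between members of the same library do not depend on the total and are given per kb. The level of Klf6 was 5.97 times that of Klf2 in RNA-Best and 4.67 times in RNAlater, whereas Klf6 over Klf10 was 4.18 and 4.27. Ier2 over Ier3 was 2.58 in RNA-Best and 2.05 in RNAlater. Btg2 over Arc was 3.39 and 2.49, and Btg2 over Btg1 was 11.5 and 10.5. Ier2 over Ier5 was 5.21 and 4.36. The quotients of the abundant Btg2 and Ier2 over other members were thus higher in RNA-Best. Summed over the 10 genes, the level was 3082 CPM with RNA-Best and 3676 CPM with RNAlater, or 0.308% and 0.368% of all counts.

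Transcript length was set beside each ratio because long transcripts had lower ratios in these libraries across all genes. The median log2 ratio fell from 0.28 among genes with transcripts of up to 1 kb to -0.90 among those over 10 kb. The transcripts of the 10 genes ran from 1131 to 5001 bases, with a median of 3036 against 3087 for all genes. A LOWESS curve of the ratio on length over 16443 genes gave the value typical of each length. Below this curve lay 8 of the 10 genes, against 48.9% of all genes, and the median distance of the 10 from it was -0.12.

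Klf2 and Ier3, both short, stood farthest below other genes of their length. The transcript of Klf2 has 1847 bases, and only 1.58% of the 2713 genes of 1 to 2 kb had a lower ratio, the class median being 0.07. Ier3, with 1131 bases, lay 0.50 below the curve, and 10.5% of the same class were lower. Klf4 (3029 bases) and Arc (3055 bases) were 0.47 and 0.38 below the curve, with 10.8% and 16.2% of the 3 to 4 kb class lower. For the other 6 genes the distance was between -0.15, for Klf10, and 0.20, for Btg1.

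The ratio of Klf6 was that of other transcripts of its length. Its 4225 bases put it in the class of 4 to 6 kb, whose median was -0.40, and its -0.36 was 0.03 below the curve. Btg2, at 2743 bases, was 0.03 above the curve, and Ier2, at 1522 bases, 0.09 below it. With the length trend removed, the 2 genes that had a positive value were Btg1 and Btg2. Btg1 depends on which of its 2 coding transcripts is counted, since the other has 668 bases and its class of up to 1 kb had a median of 0.28. By the longest coding transcript 8 of the 10 genes lay below the median of their class, and by the shortest 9 did, with Klf6 the exception.

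**Figure D3:**
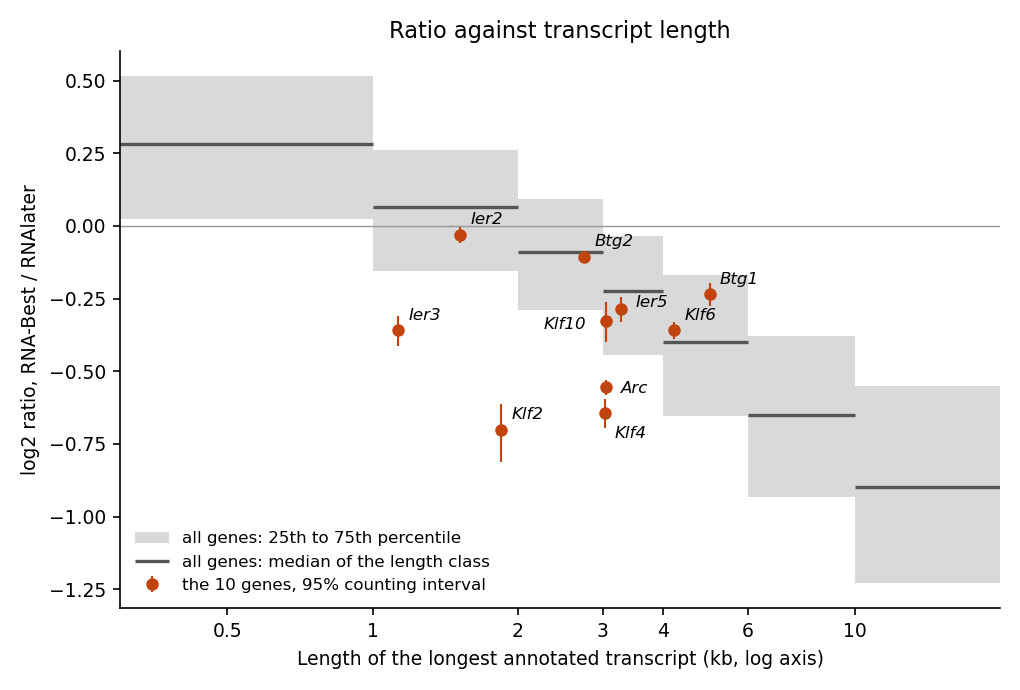
Log2 ratio of RNA-Best to RNAlater against the length of the longest annotated transcript (kb, log axis) for the 10 genes, with 95% counting intervals, over the median and the 25th to 75th percentile of all genes in each length class. Klf2, Ier3, Arc and Klf4 lie below the grey band of their class and the other 6 lie within it.

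The 10 genes were compact. At most 3 exons were found in the coding transcript of 7 of the 10, against 13.7% of all genes, and Ier2 and Ier5 had 1 exon (2.74% of all). All 10 genes spanned less than 10 kb of the genome, as 33.4% of all genes did. The median log2 ratio of genes with at most 3 exons was 0.08 against 0.10 for other genes at 1 to 2 kb, -0.09 against -0.09 at 2 to 3 kb, -0.19 against -0.24 at 3 to 4 kb and -0.30 against -0.41 at 4 to 6 kb, the class of Btg1. No annotated gene overlapped any of the 10. The counts of Klf2, Klf10 and Ier5 were whole numbers in both libraries, while those of the other 7 held fractions of reads in at least 1 library and are uncertain to that extent.

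Other genes of the same families and pathways were mostly lower in RNA-Best too, and their counts are to be read against the 51.2% of all genes that were lower by CPM and the 36.8% under TMM. Of 13 other Krüppel-like factors, 11 passed the limit of 1 CPM, 10 were lower by the interval, 2 of these by at least 2-fold, and under TMM 9 were lower and 1 was higher. Their median log2 ratio was -0.67, against -0.50 for the 4 members and -0.18 for all genes. Klf5, an epithelial factor, was the lowest at -1.04, with 7.05 against 15.0 CPM. Klf14 was the highest at 0.05, and its interval of -0.04 to 0.14 held equal levels. Klf9, a target of glucocorticoid and thyroid hormone receptors, had 46.3 and 70.7 CPM. The other factors had longer transcripts than the 10 genes, with a median of 4486 bases, and their median distance from the length curve was -0.25, against -0.31 for the 4 members, so the order of the 2 medians turned with the length trend removed.

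The Sp factors, relatives of the Krüppel-like factors that bind GC boxes, were lower in 4 of the 4 that passed the limit, with a median of -0.54 between Sp1 at -0.93 and Sp3 at -0.24. Under TMM and under DESeq2 size factors 2 of these 4 were lower. Their transcripts had a median of 4937 bases, and with the length trend removed their median was -0.09, with 2 of the 4 below the curve. Among paralogs of the Ier and Btg genes, Ier5l had a log2 ratio of -0.68 and Tob2 of -0.66. Tob1, the most abundant of them at 165.0 and 189.5 CPM, had -0.20, and Btg3 had -0.15. All 4 were lower by CPM, and 2 were lower under TMM. Their median distance from the length curve was -0.24. Btg4 had a count of 0 in RNA-Best, which allows up to 3 counts, and 2 in RNAlater.

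The partners of BTG proteins in deadenylation had a median near the length curve. Of 12 measured, 9 were lower by the interval, 0 were higher and 3 held equal levels (8 lower and 3 higher under TMM), with a median log2 ratio of -0.37 and a median distance from the length curve of 0.04. Cnot1, the scaffold of the CCR4-NOT complex, with a transcript of 8390 bases, was the lowest at -0.92. Cnot7, a catalytic subunit that BTG proteins bind, stood at 0.05 (-0.01 to 0.12). Pabpc1, the poly(A)-binding protein that BTG proteins contact, had levels of 221.0 and 326.4 CPM and stood at -0.56.

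Regulators upstream of early genes were SRF and CREB with their relatives and cofactors, together with Mef2a, Mef2c and Mef2d. Of these 15 genes, 13 were lower and 1 was higher (12 and 2 under TMM). They had a median of -0.65 and a median distance from the length curve of -0.30. Srf itself had 145.0 and 193.0 CPM and stood at -0.41 (-0.46 to -0.37). Its cofactor Mrtfb was the lowest at -1.07. Crem, a CREB relative that also yields the inducible repressor ICER, was the highest at 0.11 (0.05 to 0.16). Proteins that bind AU-rich elements were lower in 7 of 8 (6 lower and 1 higher under TMM), with a median of -0.59 and a median distance from the length curve of -0.15, below which 4 of the 8 lay. Zfp36, which recruits decay factors to such elements and is itself an early gene, had levels of 606.0 and 1046 CPM and stood at -0.79. Zfp36l1 was the lowest of these at -0.93, and Tial1 the highest at 0.02 (-0.05 to 0.08).

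The classical early transcription factors had a lower median ratio than the 10 genes. All 14 of the AP-1, Egr and Nr4a genes were lower by CPM (51.2% of all genes), 2 of them by at least 2-fold, with a median log2 ratio of -0.64 and a median distance from the length curve of -0.47. The corresponding values of the 10 genes were -0.34 and -0.12. Nr4a3 was the lowest at -1.15, and Jund the highest at -0.09. Under TMM 11 of the 14 were lower and 2 higher. Fos, Junb and Jun had the highest levels per kb of the list, and Junb, with 1687 and 1842 CPM and -0.13 on the log2 scale, had a ratio near to that of Btg2.

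Activity-induced genes often studied together with Arc had a median log2 ratio of -0.16, close to that of all genes. Of 12 such genes 9 were lower and 2 higher by CPM, against 51.2% and 20.2% of all genes. Their median distance from the length curve was -0.15, and 8 of the 12 lay below it. The lowest was Vgf, which encodes a secreted neuropeptide precursor, at -0.57 (-0.64 to -0.51), and the interval of Arc overlapped it. The highest was Rgs2, a regulator of G-protein signalling, at 551.1 against 509.4 CPM and 0.11. Under TMM the median of this list was 0.01, with 5 lower and 4 higher. By its ratio Arc, at -0.55, lay below all of these genes but Vgf.

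**Figure D4:**
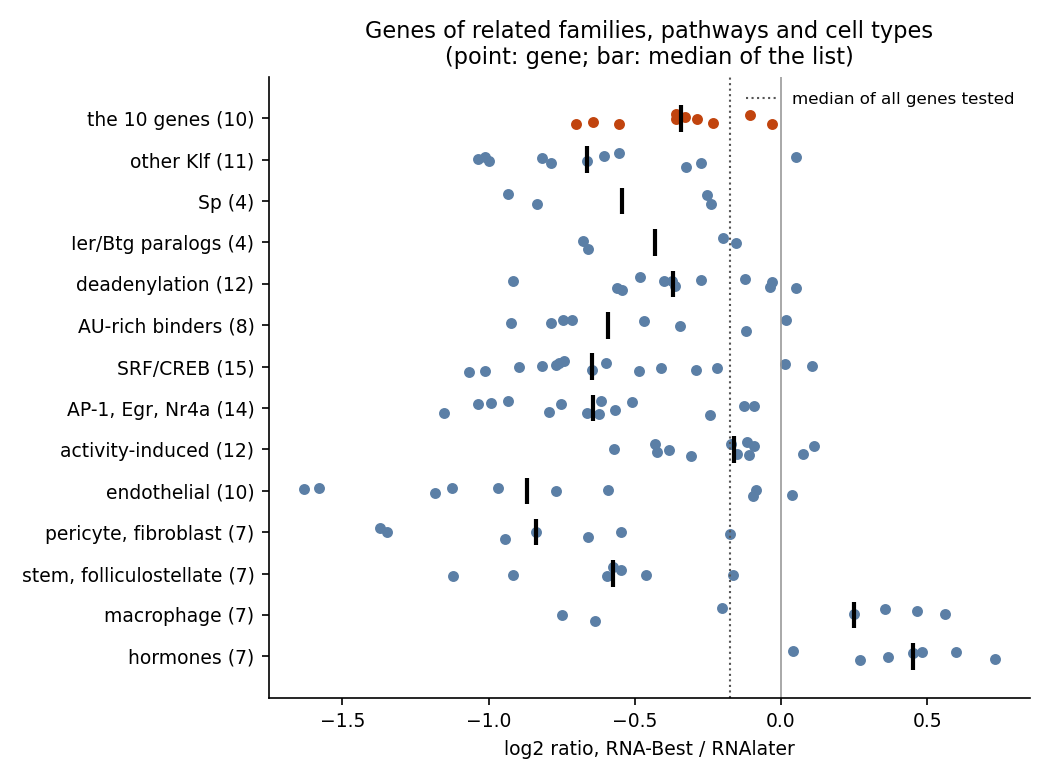
Log2 ratio of RNA-Best to RNAlater of the 10 genes and of the genes of 13 related lists; each point is a gene that passed the limit of 1 CPM, the bar is the median of the list, the number in brackets is the number of genes and the dotted line is the median of all genes. The 10 genes have a median of -0.34, the AP-1, Egr and Nr4a genes -0.64 and the hormone genes 0.45.

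Whole pituitary holds endothelial, stromal, immune and stem cells beside the endocrine cells, and Klf2 and Klf4 are known from endothelium, so markers of these cells were read next to the 10 genes. In bulk RNA fewer cells of a type and less RNA per cell cannot be told apart. Endothelial markers were lower in 7 of 10 and higher in 0 by CPM (51.2% and 20.2% of all genes), 4 of them lower by at least 2-fold, with a median of -0.87, and under TMM Egfl7 was higher. They ranged from Kdr at -1.63 to Egfl7 at 0.04. Their summed level was 430.2 CPM with RNA-Best and 812.6 CPM with RNAlater, and none of the 10 was at 0 in either library. As a share of this sum Klf2 was 6.11% in RNA-Best and 5.30% in RNAlater, and Klf4 25.6% and 21.2%. Over the summed pericyte and fibroblast markers the shares went the other way, with 4.61% and 5.62% for Klf2 and 19.3% and 22.5% for Klf4. Most of that sum was Col1a2, at 376.0 of 569.6 CPM in RNA-Best and 424.6 of 765.6 CPM in RNAlater. The log2 ratio of Col1a2 was -0.18, against a list median of -0.84, so these shares rest largely on 1 gene. Over macrophage markers the shares were also lower in RNA-Best (57.9% and 99.9% for Klf4). Over stem and folliculostellate markers they were 10.8% and 9.67% for Klf2.

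Pericyte and fibroblast markers were lower in 7 of 7 by CPM and 6 under TMM (median -0.84) and summed to 569.6 and 765.6 CPM. Stem and folliculostellate markers were lower in 6 of 7 (median -0.58) and summed to 244.4 and 445.1 CPM. Macrophage markers were lower in 3 and higher in 4 of 7 (median 0.25) and summed to 189.9 and 172.2 CPM. None of the markers in these 3 lists was at 0 in either library. The 7 hormone genes were all higher in RNA-Best under each scaling, with a median of 0.45 by CPM. Hormone transcripts were short, with a median of 895 bases, and those of pericyte and fibroblast markers long, with 5348. Median distances from the length curve were -0.66 (endothelial), -0.53 (pericyte and fibroblast), -0.51 (stem and folliculostellate), 0.13 (macrophage) and 0.32 (hormone). Gh lay 0.16 below the curve. By CPM most endothelial and most stem and folliculostellate markers, and all pericyte and fibroblast markers, were thus lower, like the 10 genes. The intervals of the endothelial markers Cldn5, Esam and Egfl7 held equal levels. Hormone mRNAs were higher, and macrophage markers went both ways. The part of these markers in the result was not tested.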

How the data were processed

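Poly(A) RNA of dissociated pituitary cells was sequenced in 2 libraries, grouped by the stabilizer in the labels. The authors deposited 1 table of estimated counts per gene, not normalized, in which 35.4% (RNA-Best) and 34.9% (RNAlater) of values above 0 were not whole. The submitters' processing notes name STAR 2.5.1b, featureCounts 1.5.0-p1 and the build mm10. For its bulk libraries the study names the assembly GRCm38 and GENCODE M8, with the same STAR and featureCounts versions, and does not say whether this covers the pituitary libraries. How reads were divided and the strand setting are not given in the sources used here. Of 47069 identifiers, 46488 (98.8%) were named through GENCODE M21 (GRCm38), ignoring version suffixes, which differ for Klf6, Klf10 and Btg1. Mkl1 and Mkl2 were matched as Mrtfa and Mrtfb, and Prmt1 was not analysed here.

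CPM used the column totals (53915047 and 44917492). Log2 ratios used a pseudocount of 0.5 CPM, which understates differences of weak genes, over genes whose mean reached 1 CPM. Estimated counts were rounded for the exact conditional binomial 95% intervals and for the TMM (edgeR 4.0.16) and DESeq2 1.42.0 factors in R 4.3.3. Intervals of single levels were exact Poisson intervals. Intervals and the limit of 3 counts for a 0 cover counting error only. The linear model of the study needs replicates and was not fitted. Length was that of the longest annotated transcript, and the trend was a LOWESS curve (span 0.2, statsmodels 0.14.6, Python 3.11.15, numpy 2.4.6, scipy 1.17.1, pandas 2.3.3). Figures were drawn with matplotlib 3.10.9. The steps were tested on simulated data. The 10 genes, the 13 lists and the alternatives were chosen with earlier results of these data known. Named beside the 10 genes are the ends of each list, its 3 genes with the highest level per kb, and the paralogs, endothelial markers and hormone genes.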

Additional observations from a re-analysis of the deposited data

How the results depend on the processing

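No paired analysis was possible because there was 1 library for each stabilizer and the labels number no replicates, and for the same reason no replicate could be left out. The median log2 ratio of the 10 genes was -0.34 by CPM, -0.171 (TMM), -0.159 (DESeq2 size factors), -0.216 (total without Prl and Gh) and -0.119 with the length trend removed. Ier2 changed sign to 0.143 (TMM), 0.155 (DESeq2 size factors) and 0.098 (total without Prl and Gh). Btg2 changed sign to 0.068, 0.080 and 0.023 under these scalings and to 0.026 with the length trend removed, where Btg1 stood at 0.204. The other 8 genes kept their direction under the 3 scalings. Of the 3 genes with whole counts, 3 were lower, the smaller number following from the restriction to 3 genes. Without that restriction 51.2% of all 16504 genes were lower by CPM. The median log2 ratio of the 3 genes was -0.327, against -0.221 for the 8949 genes under the same restriction. Pseudocounts of 0.1, 1 and 5 CPM, no filter, and a limit of 10 CPM left the 10 ratios within their counting intervals. No setting tried gave a 2-fold difference in any of the 10. The number of all genes at least 2-fold lower and higher in RNA-Best was 824 and 45 by CPM, 438 and 110 (TMM), 423 and 118 (DESeq2 size factors), 572 and 94 (total without Prl and Gh), 333 and 22 with a pseudocount of 5 CPM, and 93 and 47 with the length trend removed. Except where the construction of the alternative shows it, the cause was not tested.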
